A study of Mus musculus with 12 samples.

Results

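The carbonic anhydrase genes examined here were Car1, Car2, Car3, Car4, Car7, Car8, Car9, Car12, Car13 and Car14. They were taken by name: every probe that is not a control probe and whose gene name on the array equals 1 of these symbols was used. All 10 were found, with 74 probes, among the 19505 gene names on the array. The material was the cochlea of male C57BL/6 mice aged 6 weeks, with no treatment or genetic change, cut into the apical, middle and basal turns together with the spiral ganglion, the organ of Corti and the lateral wall, after removal of the bony otic capsule. Each turn was represented by 4 single-colour exon arrays made from 25 ng of total RNA each, 12 arrays in all. A value below is the scaled signal of a gene: the fluorescence intensity of its probes after every array was brought to the same 75th percentile, averaged over the probes of the gene on the log2 scale. The study asked which genes differ along the tonotopic axis of the cochlea, and its comparisons are read here for this family.

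Carbonic anhydrases are zinc enzymes that turn carbon dioxide and water into bicarbonate and a proton, and back. Some work in the cytosol, some are held on the outer face of the cell membrane, and a few related proteins have lost the catalytic activity. In the cochlea the family is known from the fibrocytes of the spiral ligament and from the stria vascularis, where bicarbonate and proton transport help to set the pH and the potential of the endolymph.

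Each slide carried the arrays of a single turn, so turn and slide cannot be told apart. The turns were dissected from a shared set of mice, and the labels do not say which arrays of different turns came from the same mouse, so the arrays were fitted without pairing. P-values measure only the spread between these samples. Between 77.4% and 81.4% of the spots that were not controls lay well above background on each array, and none was saturated. After scaling, the spike-in control probes were 0.49 lower in the basal than in the apical turn on the log2 scale. Scaling to these probes moved the median difference of all genes from 0.04 to 0.52, scaling to the array median moved it to 0.15, and the share of basal-versus-apical calls that were higher in the base went from 55% to 94.9% and 73.5%. Each turn is a mixture of cells, so fewer cells of a type and less RNA per cell cannot be told apart.

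Most of the 10 members were more strongly expressed toward the base. Between the apical and the basal turn, 7 of the 10 genes rose (Car2, Car3, Car4, Car8, Car12, Car13 and Car14), Car7 fell, and Car1 and Car9 did not pass the test (limma, Benjamini-Hochberg adjusted p under 0.05 over all genes). Over all genes, 39.2% passed this comparison, 21.6% being higher in the base and 17.6% higher in the apex. The median log2 difference of the 10 genes, basal minus apical, was 0.49, against 0.04 over all genes. In the 7 genes that rose, every basal array lay above every apical array, as in 21.4% of all genes. Of the 74 probes 45 rose, 5 fell and 24 did not pass, where 34.4% of all probes passed (16.4% higher in the base and 18% higher in the apex). The 45 include 1 probe of Car7, a gene that fell, and 1 probe of Car1, a gene that did not pass. Probes of a gene are not replicates, so the probe counts here and below are descriptions.

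Fewer members passed between neighbouring turns. From the apical to the middle turn, Car2 and Car12 rose, no member fell and 8 did not pass, where 12% of all genes passed (7.59% with the middle turn higher and 4.42% with the apex higher). At an unadjusted p under 0.05 in the same limma fit, 5 members had the middle turn higher and 0 the apex. Every middle array lay above every apical array in 3 members (Car2, Car9 and Car12) and in 13.5% of all genes. Of the members' probes 12 rose and 0 fell, against 5.91% of all probes passing (2.86% upward and 3.04% downward). Without apical array 1, apical array 3, middle array 2 or middle array 4 the count was 1, Car2 alone. Leaving out middle array 1 gave 4, with Car8 and Car14 beside Car2 and Car12.

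Between the middle and the basal turn, Car2, Car3, Car4, Car13 and Car14 rose, Car7 fell and 4 did not pass. The share over all genes was 20.9%, 9.21% having the base higher and 11.7% the middle turn. Every basal array lay above every middle array in 4 members (Car2, Car3, Car4 and Car13) and in 11.6% of all genes. Of the members' probes 22 rose and 5 fell, against 13.8% of all probes passing (6.02% upward and 7.76% downward). Without middle array 1, the lowest middle array for every member but Car4 and Car7, the count of members was 2 in place of 6, Car2 and Car7. The median log2 difference of the members was 0.37 here and 0.19 from the apical to the middle turn, and over all genes it was -0.04 and 0.07.

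**Figure D1:**
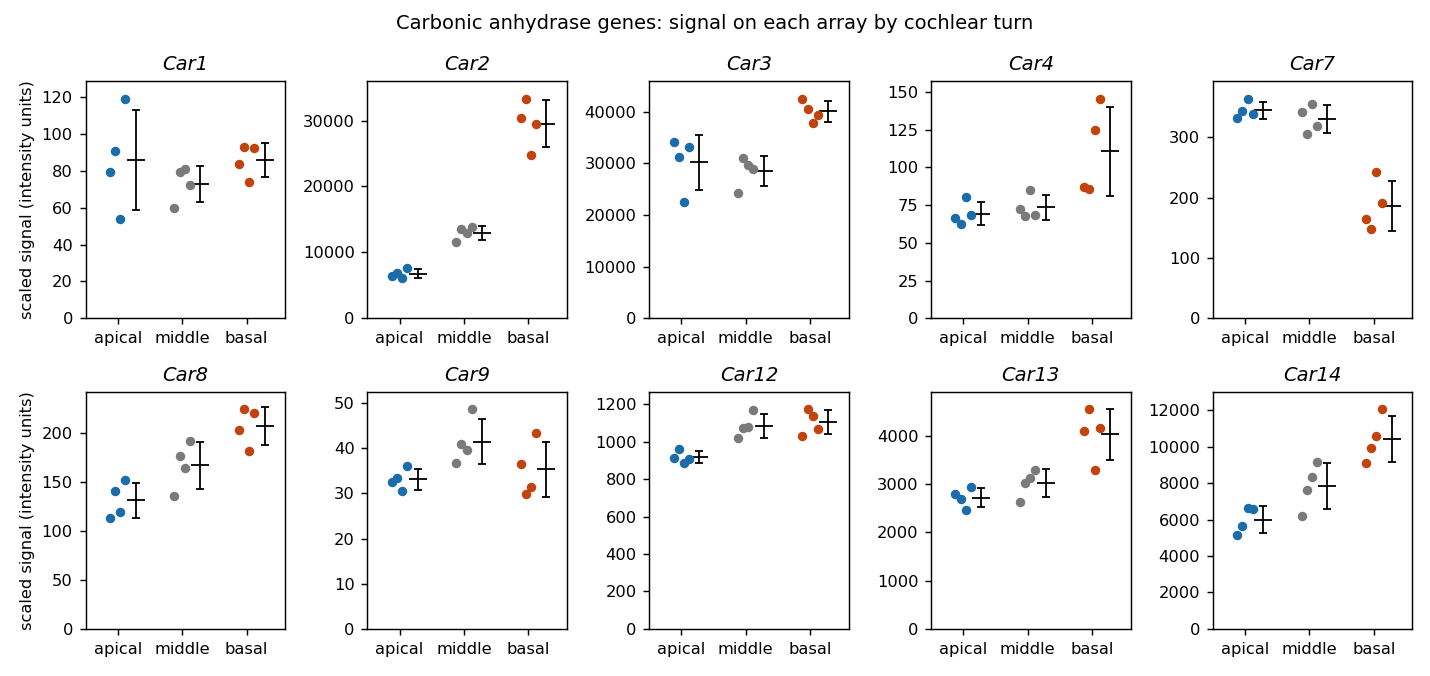
Scaled signal (linear intensity units, axis from 0 and its own range in each panel) of the 10 carbonic anhydrase genes on every array, by cochlear turn. Each point is an array, and the bar beside the points gives the mean and SD of 4 arrays. Car2 climbed from 6748 through 12973 to 29510.5, and the Car7 points of the basal turn lay below all others.

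Car2, the fast and widespread cytosolic enzyme of the family, showed the largest difference along the cochlea among the members. Its scaled signals on the 4 apical arrays were 6341, 6827, 6166 and 7658. The middle arrays gave 11521, 13562, 12927 and 13883, and the basal arrays 30429, 33346.5, 24757 and 29509.6. Every middle array lay above every apical array, and every basal array above every middle array.

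The mean of Car2 was 6748 ± 668 on the apical arrays, 12973 ± 1046 on the middle arrays and 29510.5 ± 3566 on the basal arrays (SD, n = 4 each). The log2 difference between base and apex was 2.13 (SE 0.10, 4.36-fold, limma adjusted p = 1.97e-07). The step from apex to middle turn was 1.92-fold (adjusted p = 0.00053), and that from middle to basal turn was 2.27-fold (adjusted p = 4.28e-05). Car2 was the only member past the F test over the 3 turns with a difference of at least 2-fold between turn means, a rule that 4.69% of all genes passed. All 7 Car2 probes rose from apex to base, by 2.49-fold to 5.75-fold, where 16.4% of all probes were called higher in the base.

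The genes whose signals followed Car2 most closely over the 12 arrays were Slain1 (r = 0.997), St3gal6 (r = 0.995) and Mkrn1 (r = 0.995), out of 16005 genes compared. These arrays fall into the 3 turns and share their scaling, so the coefficients describe the pattern and carry no test. Slain1, a protein of growing microtubule ends, rose by 1.42 on the log2 scale from apex to base. St3gal6, a sialyltransferase, rose by 1.02, and Mkrn1, a ubiquitin ligase, by 1.06.

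Car13, Car1, Car3 and Car2 are neighbours on chromosome 3. Car2, Car3 and Car13 rose from apex to base and from middle turn to base, by unlike amounts, and Car1 passed in neither comparison. Only Car2 among them passed from apex to middle turn. In mouse build mm9, the coordinate system of the array, the Car13 probes spanned chr3:14645174-14661930 and the Car1 probes chr3:14766396-14778407. The Car3 probes spanned chr3:14863546-14871840 and the Car2 probes chr3:14886726-14900265. Car1 is read from the minus strand and the other 3 from the plus strand.

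Car13, another cytosolic enzyme, was higher in the base by a smaller amount than Car2. Its signals were 2788, 2697, 2459.9 and 2940.5 on the apical arrays, 2619.5, 3029.7, 3118 and 3298 on the middle arrays and 4108, 4548, 3299.6 and 4156 on the basal arrays. The basal arrays lay above all others, basal array 3 only just above the highest middle array. The difference from apex to base was 0.56 on the log2 scale (SE 0.10, 1.47-fold, limma adjusted p = 0.0015), and all 6 probes rose, between 0.52 and 0.67. The middle turn was nearer to the apex, at 0.15 above it (adjusted p = 0.36), and 0.41 below the base (adjusted p = 0.017). The latter step did not pass without middle array 1 (adjusted p = 0.052) or basal array 2 (adjusted p = 0.053).

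Car3 is a cytosolic form of low activity that is abundant in muscle and fat. Its signals were 34139.7, 31276, 22462 and 33122 on the apical arrays, 24354, 31098, 29679 and 28852 on the middle arrays and 42556, 40489, 37904 and 39336.5 on the basal arrays. Apical array 3 was the lowest of the 12, and the basal arrays stood above all others. The basal turn exceeded the apical turn by 0.42 (SE 0.12, 1.34-fold, limma adjusted p = 0.019) and the middle turn by 0.50 (adjusted p = 0.017, and 0.053 without middle array 1). Under quantile normalization the basal-versus-apical difference of Car3 was 0.18 and did not pass (adjusted p = 0.24).

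Because Car3 is known from muscle and fat, markers of these tissues were read beside it. Of 9 skeletal muscle markers, Acta1 and Mylpf rose from apex to base and 0 fell (4 rose with the array median or quantile normalization and 9 with spike-in scaling). That share is near the 21.6% of all genes called higher in the base. The summed signal of the list was 614 to 640.0 on the apical arrays, 602 to 739.5 on the middle arrays and 764 to 1028 on the basal arrays. Of 6 adipocyte markers 0 passed in any of the 3 comparisons by limma, 1 being higher in the base at an unadjusted p under 0.05 (3 passed upward from apex to base with spike-in scaling). Lep and Retn had no probe well above background on all 12 arrays. The part of muscle in the Car3 difference was not tested.

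Car1, best known as an abundant enzyme of red blood cells, passed in none of the 3 comparisons. Its signals were 53.96 to 119 on the apical arrays, 59.6 to 81.2 on the middle arrays and 73.7 to 93.02 on the basal arrays, and the 3 ranges overlapped. The log2 difference from apex to base was 0.05, with a 95% interval from -0.40 to 0.49 (limma adjusted p = 0.88). Scaling to the spike-in probes made it 0.54 (adjusted p = 0.044), and the mean of linear probe signals 0.36 (adjusted p = 0.049), while the median of probes made it -0.16 (adjusted p = 0.65). With the linear mean the base also exceeded the middle turn, by 0.51 (adjusted p = 0.020). Only 3 of its 7 probes were well above background on all arrays. Among 8 erythrocyte markers 0 passed in any of the 3 comparisons, at an adjusted or an unadjusted p under 0.05, and their summed signal, mostly of the haemoglobin genes Hba-a1 and Hbb-b1, ranged from 21587 to 60637 in the apex and from 28759 to 75809.9 in the base.

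Car7, a cytosolic form known from neurons, was the only member that fell toward the base. Its signals were 332, 343, 364 and 339 in the apical turn and 343, 305, 355 and 319 in the middle turn. In the basal turn they were 164, 148, 243 and 192, below every other array. The difference from apex to base was -0.91 (SE 0.13, limma adjusted p = 0.00024), that from middle turn to base was -0.85 (adjusted p = 0.0014), and that from apex to middle turn was -0.06 (adjusted p = 0.77).

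The 6 Car7 probes did not move together. The first 4 from the 5′ end and the last fell from apex to base by between 1.12 and 1.63 on the log2 scale, and 18% of all probes were called lower in the base. The fifth rose by 1.49 (SE 0.09, 2.81-fold). This probe gave 1897, 1966, 1924 and 2074 on the apical arrays, 2565, 3046, 3008 and 3286 on the middle arrays and 5526, 6266, 4981 and 5408 on the basal arrays, the opposite course to its neighbour in the gene.

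The sequences of the rising probe and of the 2 falling probes before it are shown because the direction of Car7 depended on which was used. All are 60 bases long and read 5′ to 3′ on the plus strand of mm9. The capitals in the rising probe mark the 39 bases, of 52 aligned without gaps, that it shares with the sixth probe of Car2.
Car7 probe 5, chr8:107072897-107072956: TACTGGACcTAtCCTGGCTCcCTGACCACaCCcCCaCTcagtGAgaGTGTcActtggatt
Car7 probe 4, chr8:107072288-107072347: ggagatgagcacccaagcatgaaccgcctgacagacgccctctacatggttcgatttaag
Car7 probe 3, chr8:107072110-107072169: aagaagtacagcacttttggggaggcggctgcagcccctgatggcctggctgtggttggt

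Over the 12 arrays the fifth Car7 probe followed the Car2 signal (r = 0.996) and ran against the mean of the other Car7 probes (r = -0.94). These coefficients are descriptions, since the points share arrays and fall into 3 turns. Within the middle turn and within the basal turn, the arrays stood in the same order for this probe as for Car2, whereas within the apical turn array 1 was lowest for the probe and array 3 for Car2. Without the fifth probe, the mean of Car7 was 244 ± 12.1 in the apical, 213 ± 19.8 in the middle and 95.5 ± 27.3 in the basal turn (SD, n = 4), and the log2 difference from apex to base was -1.39 (SE 0.16, limma adjusted p = 7.73e-05). When the gene value was the mean of the linear probe signals, which gives weight to bright probes, Car7 instead rose from apex to base by 0.70 (adjusted p = 1.53e-06).

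A single probe also stood apart in Car1. The third probe of that gene, the only Car1 probe that passed, gave 1715, 1649, 1144 and 1787 on the apical arrays, 1187, 1586, 1569 and 1435 on the middle arrays and 2353, 2272, 2011 and 2186 on the basal arrays. The basal arrays were the 4 highest, and apical array 3 was the lowest, as it was for Car3. The difference from apex to base was 0.51 (SE 0.14, limma adjusted p over all probes = 0.018). The probe shares 45 of 60 aligned bases with the third probe of Car3, the highest count of identical minus different bases among 2458 pairs of probes from different members, and followed Car3 over the 12 arrays (r = 0.993), with the arrays in the same order within the middle and within the basal turn. In the apical turn array 4 was highest for the probe and array 1 for Car3. Without it the Car1 difference was -0.03 (SE 0.22, adjusted p = 0.94).

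**Figure D2:**
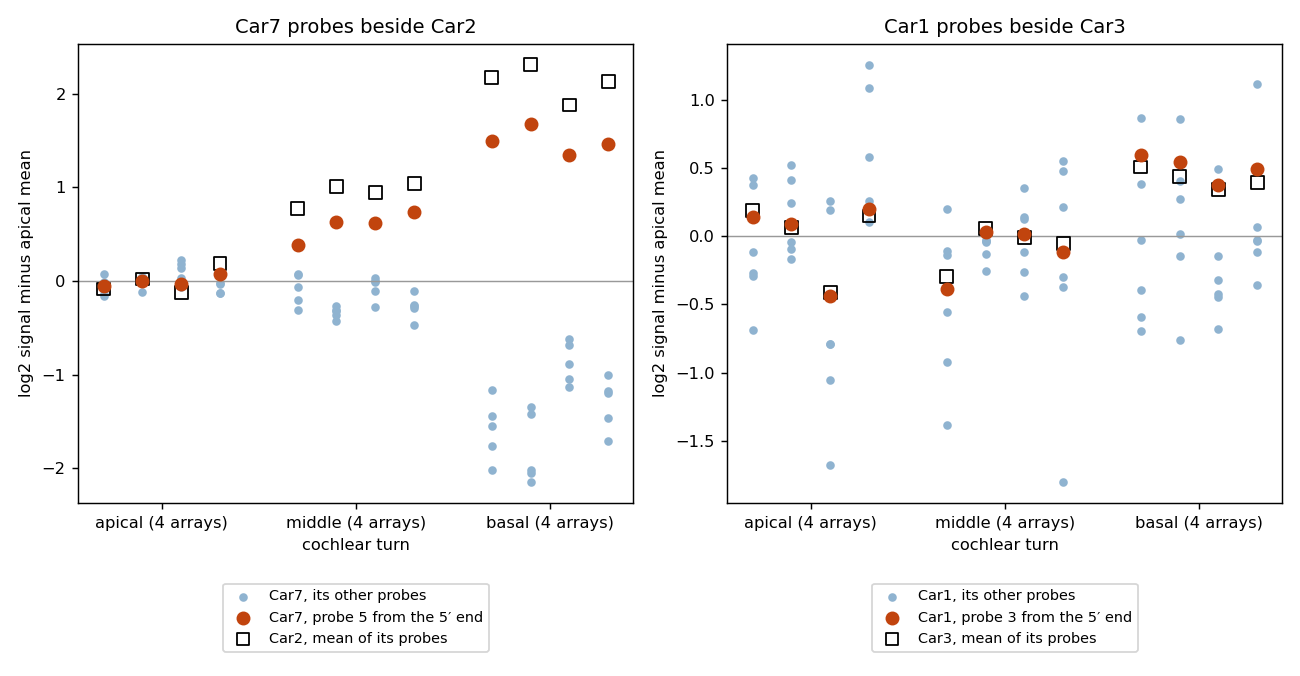
Log2 scaled signal of single probes on each of the 12 arrays, relative to the apical mean of the same probe or gene, for Car7 beside Car2 (left) and Car1 beside Car3 (right). Large filled points are the fifth Car7 probe and the third Car1 probe, small points the other probes of the gene, and open squares the mean of Car2 or Car3. The fifth Car7 probe rises by 1.49 from apex to base while the other 5 fall, and the third Car1 probe lies close to the Car3 squares.

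Other pairs of probes with like sequences were read beside these. The second Car2 probe and the first Car13 probe share 44 of 60 bases. They rose by 2.18 and 0.53, the latter within the 0.52 to 0.67 of the Car13 probes. The first Car7 probe shares 40 of 59 bases with the same Car13 probe and fell by 1.27. The third Car3 probe and the second Car13 probe share 43 of 60 bases and rose by 0.48 and 0.52. The fourth probes of Car2 and Car3 share 38 of 55 bases and rose by 2.47 and 0.46. The third Car2 probe, which shares 36 of 45 bases with the third Car3 probe, had the smallest rise among the Car2 probes, 1.32 on the log2 scale against 1.98 to 2.52 in the other 6. Without it the Car2 difference was 2.26 (SE 0.10, limma adjusted p = 1.52e-07). The part of binding by transcripts of another member in these probe signals was not tested.

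**Figure D3:**
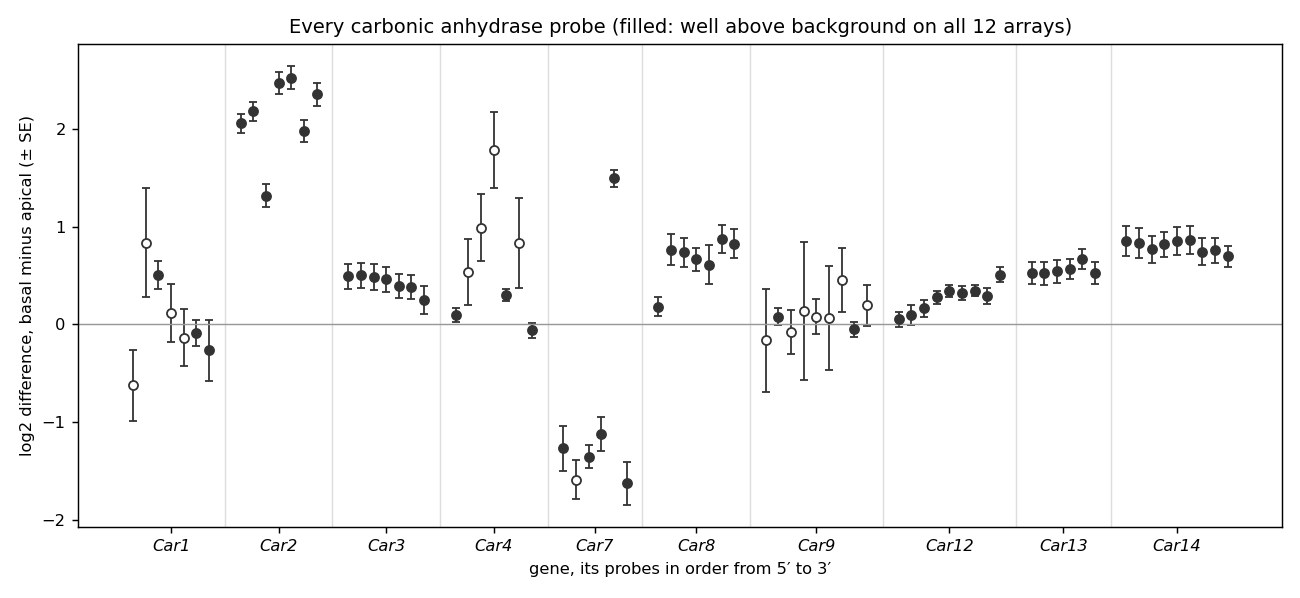
Log2 difference between the basal and apical turn for each of the 74 carbonic anhydrase probes, with the SE of the fit, ordered from 5′ to 3′ within each gene. Filled points are the 58 probes well above background on all 12 arrays, open points the others. The Car13 and Car14 probes form narrow bands, whereas 1 Car7 probe lies at 1.49 and the other 5 between -1.12 and -1.63.

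Among the membrane-bound forms, Car14, a transmembrane enzyme whose catalytic domain faces outward, rose from apex to base. Its signals were 5131, 5638, 6626 and 6574 on the apical arrays, 6186, 7639, 8342 and 9184 on the middle arrays and 9084, 9954, 10568 and 12053 on the basal arrays. Basal and apical arrays did not overlap, while the middle arrays overlapped with both. The basal turn exceeded the apical turn by 0.80 on the log2 scale (SE 0.13, 1.74-fold, limma adjusted p = 0.00074). All 9 probes rose in this comparison, by 1.62-fold to 1.82-fold.

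The middle turn of Car14 lay 0.38 above the apex (adjusted p = 0.084) and 0.42 below the base (adjusted p = 0.046). The second of these differences no longer passed when apical array 2, 3 or 4, middle array 1 or 2, or basal array 2, 3 or 4 was left out, with adjusted p between 0.052 and 0.12. It was 0.30 under quantile normalization (adjusted p = 0.12), and with only the arrays of the turns compared in the fit the adjusted p was 0.072.

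Car12, also transmembrane with an outward catalytic domain, rose from the apex to both other turns and did not pass between these. Its signals were 914, 963, 884 and 908 on the apical arrays, 1018, 1072, 1076 and 1171 on the middle arrays and 1032, 1173, 1137 and 1070.03 on the basal arrays. Both the middle and the basal arrays lay above the apical arrays and overlapped with each other. The middle turn exceeded the apex by 0.24 (SE 0.06, limma adjusted p = 0.025) and the base exceeded it by 0.27 (adjusted p = 0.0042), whereas base and middle turn differed by 0.02, with a 95% interval from -0.10 to 0.15. The call between apex and middle turn was lost without apical array 1, apical array 3, middle array 2 or middle array 4, at adjusted p between 0.055 and 0.072.

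Along Car12 the differences from apex to base were 0.05, 0.10 and 0.17 in the first 3 probes from the 5′ end, none of which passed. The other 6 probes passed, with differences from 0.28 to 0.51, the last being the largest. The sixth probes of Car12 and Car14 are printed because by the same count they are the most alike pair from these 2 genes, with 40 of 60 bases in common, given in capitals, so that their changes can be read side by side.
Car12 probe 6, chr9:66600192-66600251, plus strand: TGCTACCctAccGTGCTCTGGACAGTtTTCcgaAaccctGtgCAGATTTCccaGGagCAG
Car14 probe 6, chr3:95703354-95703413, minus strand: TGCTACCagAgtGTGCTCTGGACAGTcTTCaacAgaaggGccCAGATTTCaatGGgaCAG
The Car12 probe rose by 0.32 from apex to base (SE 0.07) and the Car14 probe by 0.86 (SE 0.14).

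Car4, which is anchored to the outer face of the membrane by a lipid, was dim on most of its probes. Its signals were 66.3, 62.6, 80.3 and 68.7 on the apical arrays, 72.5, 68.1, 85.4 and 68.3 on the middle arrays and 87.4, 85.4, 125 and 146 on the basal arrays. The basal arrays lay above the apical ones, arrays 3 and 4 well above and the other 2 only a little. Basal array 2, at 85.43, was only just above middle array 3, at 85.36. The difference from apex to base was 0.64 (SE 0.17, 1.56-fold, limma adjusted p = 0.0095) and that from middle turn to base was 0.56 (adjusted p = 0.034).

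Only 3 of the 7 Car4 probes were well above background on all arrays, and these gave smaller differences. The first differed by 0.10 (adjusted p over all probes = 0.32), and the fifth rose by 0.30 (adjusted p = 0.0034). The last, whose signal was 5558 to 6051 in the apical and 5059 to 6372 in the basal turn, differed by -0.06 (adjusted p = 0.61). When dim probes were left out, that is those without a turn in which all 4 arrays were well above background, the gene difference was 0.33 (SE 0.09, adjusted p = 0.0089), with the mean of linear probe signals it was -0.02 (adjusted p = 0.81), and with the median of probes 0.99 (adjusted p = 0.073). The step from middle turn to base did not pass without middle array 1, 2 or 4 or basal array 3 or 4 (adjusted p between 0.074 and 0.080) or with normexp background correction (0.12, adjusted p = 0.24). Nor did it pass with the median of probes (1.22, adjusted p = 0.055) or with only the arrays of the turns compared (adjusted p = 0.074).

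Car9, a transmembrane enzyme known as a target of the hypoxia response, passed in none of the 3 comparisons. Its signals were 30.6 to 36.05 on the apical arrays, 36.8 to 48.6 on the middle arrays and 29.8 to 43.4 on the basal arrays. The middle arrays stood above the apical arrays, and the basal arrays overlapped with both. From apex to base the log2 difference was 0.08 (95% interval -0.18 to 0.34, limma adjusted p = 0.67), and from apex to middle turn it was 0.32 (adjusted p = 0.10). Scaling to the spike-in probes made these 0.57 (adjusted p = 0.0021) and 0.54 (adjusted p = 0.011). Of its 9 probes, 2 were well above background on all arrays and 2 on none.

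Car8 belongs to the family by sequence but lacks catalytic activity, and is known to bind the inositol trisphosphate receptor of Purkinje cells. Its signals were 113, 141, 119 and 152 on the apical arrays, 135, 176, 164 and 192 on the middle arrays and 203, 224, 182 and 219.8 on the basal arrays. Basal arrays lay above all apical arrays, and the middle arrays overlapped with both. The difference from apex to base was 0.67 (SE 0.12, 1.59-fold, limma adjusted p = 0.0015), and 6 of 7 probes rose. The steps on either side of the middle turn, 0.35 and 0.32, did not pass (adjusted p = 0.090 and 0.093).

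**Figure D4:**
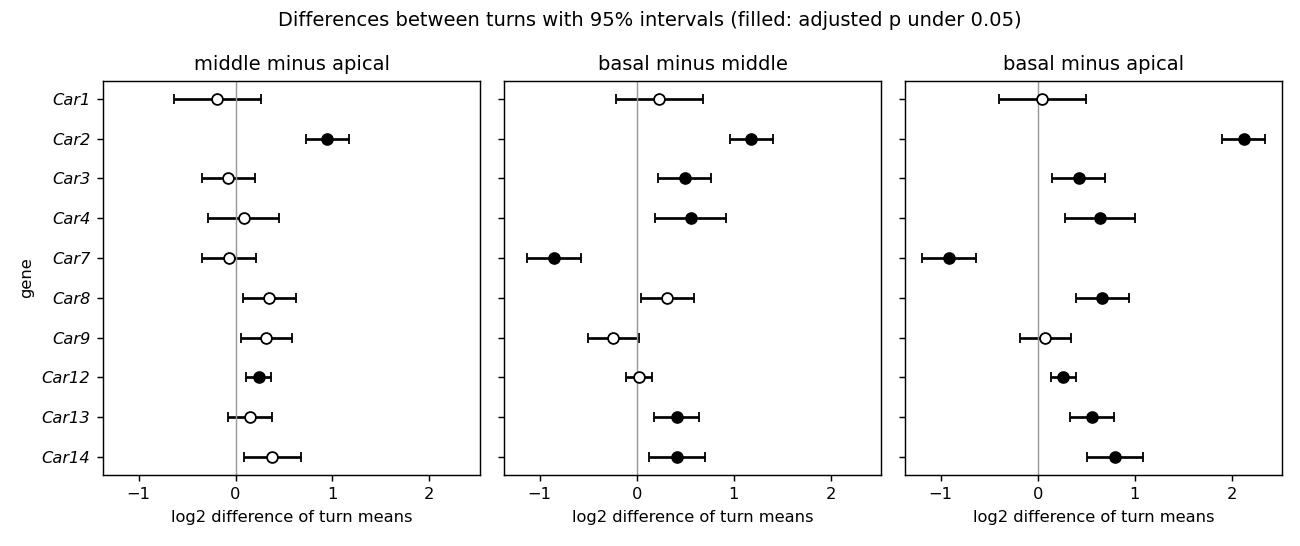
Log2 differences of the 10 carbonic anhydrase genes between each pair of turns, with 95% intervals from the limma fit on 12 arrays. Filled points passed at an adjusted p under 0.05. Car2 lies farthest right in every panel, at 0.94, 1.18 and 2.13, and Car7 is the only filled point to the left of 0.

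The remaining carbonic anhydrase genes on the array were read beside the members. Of 8 genes (Car5a, Car5b, Car6, Car10, Car11 and Car15, and the receptor phosphatases Ptprg and Ptprz1 that carry a carbonic anhydrase domain), 0 were higher in the base by limma, also at an unadjusted p under 0.05, and 3 were lower: Car10, Ptprg and Ptprz1. That share of the list is near the 39.2% of all genes that passed. The median difference of the 8 was -0.12. Scaling to the spike-in probes turned these counts to 5 higher and 1 lower, and both the array median and quantile normalization gave 1 higher and 2 lower. Car10, a secreted protein without catalytic activity that binds neurexins, had 147, 109, 137 and 124 on the apical arrays and 57.8, 25.6, 116 and 35.6 on the basal arrays, so that basal array 3 overlapped with the apex. It fell by 1.37 (SE 0.38, adjusted p = 0.015).

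Transporters of bicarbonate, the product of the enzymes, were read next. Of 14 measured genes, 2 rose from apex to base, 3 fell and 9 did not pass, a share near the 39.2% over all genes, and the median difference was 0.01. With spike-in scaling 10 rose and 1 fell. Slc4a10, a sodium-dependent bicarbonate importer, rose by 1.81 (SE 0.12, 3.50-fold, adjusted p = 2.29e-06). Its signals were 1239 to 1534 in the apex, 2306 to 3219 in the middle turn and 4101 to 5497 in the base, without overlap between any pair of turns. The sodium bicarbonate cotransporter Slc4a4 went the other way, from 188 ± 22.03 to 80.1 ± 27.7 (SD, n = 4), a log2 difference of -1.29 (adjusted p = 0.00098). The exchanger Slc26a4 was not called in any comparison.

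Other acid-handling genes were read in the same way. Among 6 further acid extruders, 1 rose and 3 fell from apex to base (3 and 1 with spike-in scaling). Across all genes, 21.6% were higher in the base and 17.6% higher in the apex. Slc9a3, a sodium-proton exchanger, fell by 1.26 (SE 0.09, adjusted p = 2.79e-06), with 3 of its 15 probes well above background on all arrays. Of 6 proton pump genes of acid-secreting epithelia, 2 rose and 0 fell, also at an unadjusted p under 0.05 in limma. That share of the pump list is near the 39.2% of all genes that passed. Atp6v1g3, a subunit of that pump, gave 11.7 to 14.7 in the apex, 25.04 to 34.6 in the middle turn and 175 to 239.7 in the base, and it passed upward from apex to base. None of its 3 probes was well above background on all arrays, and in the apex only 2 of 4 arrays had such a probe. With gene values raised to the lowest signal called well above background on the same array, the base was 15.2-fold higher than the apex. Some probes with higher signals were not called well above background either, so this figure is not a lower bound.

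The hypoxia response list, which was read beside Car9, rose in 7 of its 11 genes from apex to base and fell in 1, Ndrg1. The shares over all genes were 21.6% higher in the base and 17.6% higher in the apex. The median difference of the list was 0.47, against 0.04 over all genes. Adm, the gene of the vasodilator peptide adrenomedullin, went from 204 ± 14.4 to 424 ± 79.1 (SD, n = 4), a log2 difference of 1.04 (limma adjusted p = 0.00047).

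**Figure D5:**
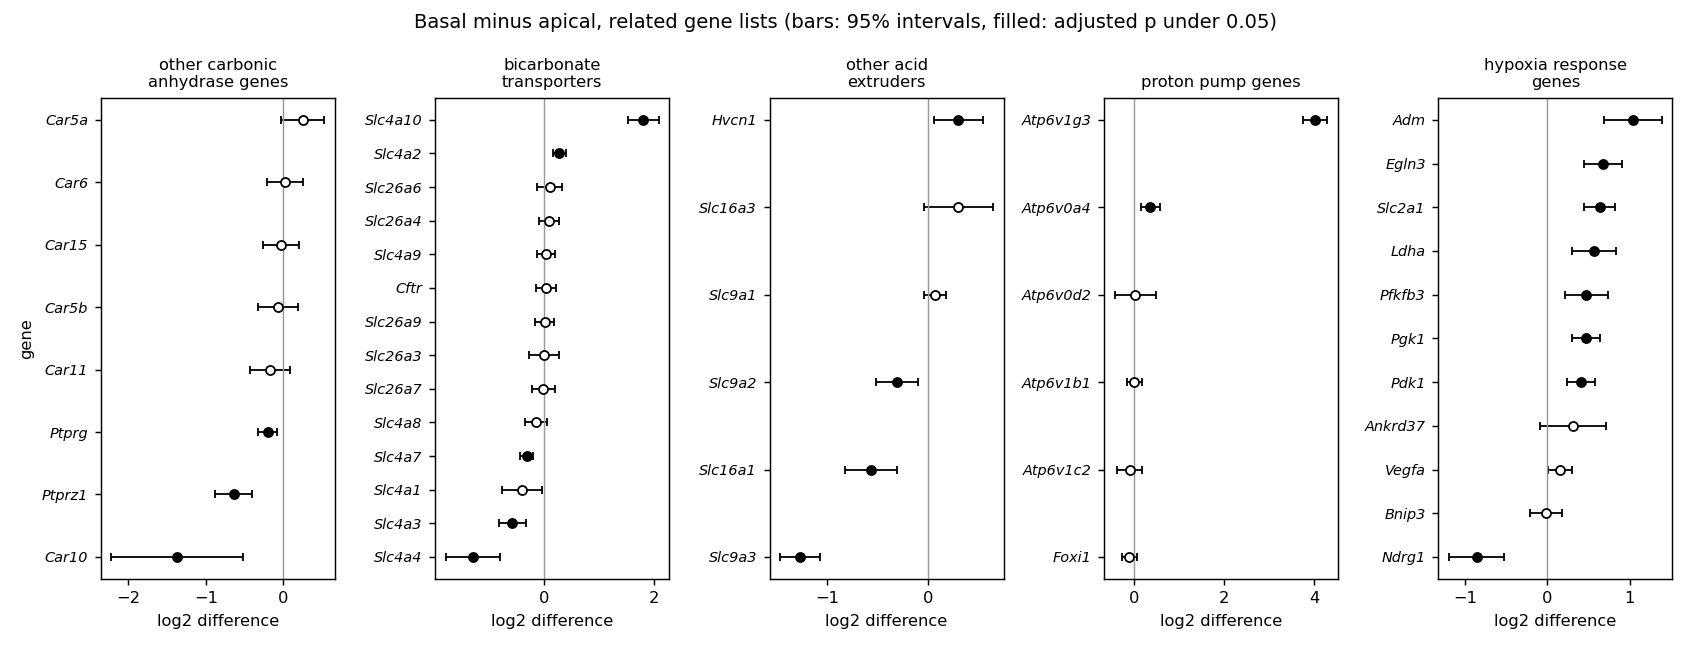
Log2 difference between basal and apical turn, with 95% intervals from the limma fit, for the genes of 5 related lists (each panel has its own axis). Filled points passed at an adjusted p under 0.05. Slc4a10 at 1.81 and Slc4a4 at -1.29 lie at opposite ends of the bicarbonate transporters, and 7 of 11 hypoxia response genes are filled on the right.

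Markers of cochlear cell types moved with the same comparison, and all of them were measured above background on every array by 1 probe or more. Of 5 spiral ligament fibrocyte markers, 4 rose from apex to base, among them Otos (log2 difference 1.28, adjusted p = 5.70e-07), and Otor fell, a call not made with spike-in scaling. Summed over the list, the signal was 246630.0 to 273761 in the apex, 342465 to 385832 in the middle turn and 487243 to 553929 in the base. Stria vascularis markers rose in 4 of 5 genes, with sums of 17472 to 20175 in the apex and 29938 to 35883 in the base. Among all genes, 21.6% were called higher in the base.

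Markers of hair cells and of the spiral ganglion went down instead, where 17.6% of all genes were called higher in the apex. All 5 hair cell markers fell from apex to base (4 with spike-in scaling), with log2 differences of -2.94 in the motor protein gene Slc26a5, -1.65 in Slc17a8 and -1.38 in Otof, and the sum of the list was 852 to 1067 in the apex and 256 to 346 in the base. Of 7 spiral ganglion neuron markers 6 fell, with log2 differences of -2.01 in Nefh, -2.00 in Nefm, -1.80 in Nefl and -1.40 in Snap25, and Prph rose. All 5 Schwann cell markers fell, with sums of 11721 to 13340.0 in the apex and 5583 to 11288 in the base, while with spike-in scaling they no longer passed. The part of these cell types in the rise of Car2, Car13 and Car14 and in the fall of Car7 and Car10 was not tested.

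Bone cells, in which Car2 is also abundant, were read as well. Of 7 osteoclast markers only Tm7sf4 passed, upward, with no probe well above background on all arrays (2 rose with the array median and 5 with spike-in scaling), and the sums were 614 to 1360.2 in the apex and 852 to 1106 in the base. Of 6 osteoblast and osteocyte markers only Dmp1 rose, by 1.09 on the log2 scale (limma adjusted p = 0.00019). Their sums, 1066 to 4395 in the apex and 2101 to 2677 in the base, overlapped. Both bone lists stand beside the 21.6% of all genes called higher in the base.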

How the data were processed

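Total RNA of each cochlear turn was labelled with Cy3 and hybridized to Agilent SurePrint G3 mouse exon arrays. Per the file headers, the deposited values are spot intensities that the authors read with Agilent Feature Extraction 10.7.3.1, background subtracted and not normalized between arrays. The table of the whole series held the same intensity values (largest difference 0) and was used for that check alone.

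Here control and flagged spots were left out, each array was scaled to a common 75th percentile (641), and log2 values of repeated spots, then of the probes of a gene name, were averaged (165865 probes, 19505 genes). R 4.3.3 with limma 3.58.1 was used to fit all 12 arrays by turn, with Benjamini-Hochberg adjustment over all genes or all probes. Names were those of the array design, with older symbols matched through RefSeq; Slc4a5 was not analysed here. Probe sequences and mm9 coordinates were those of the array files, compared without gaps over at least 25 bases. The number of arrays, 4 a turn, limits the precision. The fit was tested on simulated data with 200 genes changed in the basal turn. It recovered 52% of changes of 0.5 on the log2 scale and 81% of changes of 1, with 3 false calls. In the data 39.2% of all genes passed between apex and base, far more than were changed in the simulation. The adjustment was therefore stricter in the simulation, and its recovery rates are not those of the data. A difference of such size can fail to pass, at a rate that the simulation does not give. The members and lists were chosen with earlier results of these data known. All members were named. Genes of the lists were named with values where they passed the F test and the 2-fold rule, at most 4 a list, and for Car2 the 3 most similar genes; probes that went against their gene, Mylpf, Acta1 and the genes named without values were chosen after their values were seen. Alternatives to the scaling, background correction, probe summary, arrays and test are given in the closing section.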

Additional observations from a re-analysis of the deposited data

How the results depend on the processing

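The alternatives run took other scalings, background corrections, probe rules and tests, and left out each array in turn. Of 729 recomputed member differences, 670 were counted as unchanged in direction and in their side of the threshold. A change of sign also counted as unchanged where neither fit passed and the values differed by less than the SE of the main fit. Car2 passed upward in all 3 comparisons under each alternative, and Car8, Car12, Car13 and Car14 passed upward from apex to base under each. The cause of the changes below was not tested except where the setting itself shows it. With the mean of linear probe signals, which follows the brightest probes, Car7 changed sign in all 3 comparisons, to 0.70 (basal minus apical), 0.26 (middle minus apical) and 0.44 (basal minus middle), and Car4 changed sign to -0.023 (basal minus apical) and -0.085 (basal minus middle). With normexp background correction, the middle-minus-apical difference of Slc9a3 was 0.0074 (limma adjusted p = 0.95). In the main fit it was -0.36 (adjusted p = 0.028). Scaling to the spike-in probes gave 5 members passing between apex and middle turn and 5 past the F test and 2-fold rule. The median of probes gave 2 members past that rule, Car2 and Car7, as did leaving out the fifth Car7 probe, an alternative chosen after seeing the data, as were those without single probes of Car1 and Car2. The share of all calls higher in the more basal turn went from 63.2% to 81.4% (array median) and 97.3% (spike-in) between apex and middle turn, and from 44.1% to 61.9%, 55% (quantile) and 89.7% between middle turn and base.

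When single arrays were left out, the members passing numbered 8 throughout between apex and base, from 1 to 4 between apex and middle turn, from 2 to 6 between middle turn and base, and from 1 to 2 for the F test and 2-fold rule (Car7 beside Car2 without basal array 3). The replicate block, the sample number as a term in the fit, gave 5 members passing between apex and middle turn, with Car8 (adjusted p = 0.018), Car9 (0.033) and Car14 (0.0056) added, and 8 between apex and base, 7 between middle turn and base with Car8 (0.015) added, and 1 past the F test and 2-fold rule. Deviations of same-numbered samples of different turns correlated at -0.04 to 0.23 (mean 0.095, 6 of 12 over 0.1). Those of differently numbered samples correlated at -0.26 to 0.25 (mean -0.03, 2 of 36 over 0.1). No label says that equal numbers mark the same mouse, so the numbers were not used as pairs in the main fit. Signals near background limit Car1, Car4 and Car9, where 3 of 7, 3 of 7 and 2 of 9 probes were well above background on all arrays.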
